A study of Mus musculus with 6 samples.

Results

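The interferon response genes described here are 41 genes of the interferon pathway, comprising the receptor chains for type I and type II interferon, the transcription factors that act downstream of them, and the genes that these factors induce. Each gene was represented by a probe set annotated to exactly 1 gene symbol, the brightest over all arrays where it had several. By this rule 40 of the 41 genes were measured, of 22180 genes in all. The only probe set of *Gbp2* carried several symbols and was not used here.

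Expression was profiled in muscle satellite cells (SCs), the stem cells of skeletal muscle, using 1 whole-transcript Affymetrix array per sample. The samples came from adult male C57BL6 mice that were either *Slug*-/- (3 arrays) or *Slug*+/+ (3 arrays). *Slug*, also called *Snai2*, encodes a zinc-finger repressor, and the sources used here do not say how the *Slug*-/- line was made. SCs were sorted from resting, uninjured hindlimb muscle as CD45- Sca1- CD11b- CD31- cells positive for CD34 and Integrin-α7, and their RNA was extracted without any culture step. No interferon was given to either genotype. The labels call the arrays biological replicates but do not tie them to single mice. The p-values below therefore measure the spread between these samples, which may be technical.

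Type I interferons signal through a receptor made of Ifnar1 and Ifnar2, which activates Janus kinases and a complex containing Stat2 and Irf9 that binds the interferon-stimulated response element (ISRE) in the promoters of its target genes. Interferon-γ, the type II interferon, signals through Ifngr1 and Ifngr2, and many of its target genes carry the gamma-activated site. The induced genes encode sensors of viral RNA, proteins that block viral replication, and the machinery that presents peptides on MHC class I, and stem cells of several tissues are known to keep some of them on without infection.

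The promoters of 4 of the genes are shown because these genes carry the results that follow, namely *Isg15* as a classical target whose values overlapped between genotypes, *Ifit1* and *Ifitm2* as the 2 genes higher on every *Slug*-/- array, and *Tap1* as the gene with the largest negative difference. They are RefSeq sequences of the mouse build GRCm38.p6, each running 5′ to 3′ on the strand of its gene for 250 bases before and 50 bases after the start site. In the first 3, capitals mark the ISRE core, spelled GAAANNGAAA or TTTCNNTTTC on the other strand, and in *Tap1* capitals mark the E-box CAGGTG, which reads CACCTG on the other strand and is the sequence that Slug is known to bind. The windows are chr4:156200769-156201068 on the minus strand for *Isg15*, chr19:34640639-34640938 on the plus strand for *Ifit1*, chr7:140955912-140956211 on the minus strand for *Ifitm2* and chr17:34187306-34187605 on the plus strand for *Tap1*.
Isg15: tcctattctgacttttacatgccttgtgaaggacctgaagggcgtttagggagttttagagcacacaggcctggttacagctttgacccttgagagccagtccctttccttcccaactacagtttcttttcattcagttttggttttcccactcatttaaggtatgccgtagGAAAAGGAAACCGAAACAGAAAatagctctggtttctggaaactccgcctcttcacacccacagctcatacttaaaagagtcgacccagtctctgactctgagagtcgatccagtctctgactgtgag
Ifit1: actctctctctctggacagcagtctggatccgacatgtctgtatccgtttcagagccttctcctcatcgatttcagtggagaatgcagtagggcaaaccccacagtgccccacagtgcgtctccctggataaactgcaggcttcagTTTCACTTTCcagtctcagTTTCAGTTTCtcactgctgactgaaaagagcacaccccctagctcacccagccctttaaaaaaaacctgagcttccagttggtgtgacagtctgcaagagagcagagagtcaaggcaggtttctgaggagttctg
Ifitm2: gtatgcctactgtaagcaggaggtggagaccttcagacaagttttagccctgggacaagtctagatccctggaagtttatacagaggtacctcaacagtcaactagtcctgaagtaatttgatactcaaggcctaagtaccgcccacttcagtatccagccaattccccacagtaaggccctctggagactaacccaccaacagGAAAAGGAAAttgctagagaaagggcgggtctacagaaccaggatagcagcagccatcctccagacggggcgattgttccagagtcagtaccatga
Tap1: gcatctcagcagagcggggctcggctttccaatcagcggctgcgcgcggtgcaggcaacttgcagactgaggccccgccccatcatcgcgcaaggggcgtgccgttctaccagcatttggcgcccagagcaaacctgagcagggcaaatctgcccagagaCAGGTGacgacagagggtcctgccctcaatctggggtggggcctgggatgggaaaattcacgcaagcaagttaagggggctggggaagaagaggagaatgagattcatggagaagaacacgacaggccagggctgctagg
The ISRE core began at -78, -72 and -66 from the start site in *Isg15*, where the 3 matches overlap, at -104 and -85 in *Ifit1*, and at -46 in *Ifitm2*. The E-box of *Tap1* began at -90. An ISRE core was found in 15 of the 32 interferon response genes with a promoter sequence (46.9%), against 3.99% of all 27025 genes with one. A gamma-activated site (TTCNNNGAA, the same on both strands) was found in 10 of the 32 (31.2%), against 9.55% of all genes, and the E-box in 8 of the 32 (25%), against 22.6%. These are letter matches in a window and not measured binding sites. No promoter was used for *Dhx58*, *Gbp2*, *Mx1*, *Mx2*, *Oas2*, *Parp9*, *Parp14*, *Rtp4* and *Usp18*.

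*Snai2* itself had log2 expression values of 5.15, 5.10 and 4.59 in *Slug*-/- SCs, against 6.25, 6.66 and 6.53 in *Slug*+/+ SCs, a difference of -1.53 (limma, adjusted p = 0.435). All 3 *Slug*-/- arrays lay below all 3 *Slug*+/+ arrays, and the lowest adjusted p of any gene in the comparison was also 0.435. The probes of *Snai2* may lie outside the deletion, and their values would then not check that the deleted part is absent. The *Slug*-/- values also stayed above the background guide of 3.04 described below. The SC genes were present in both genotypes. *Pax7*, the transcription factor that marks SCs, averaged 9.18 ± 0.42 in *Slug*-/- and 9.37 ± 0.22 in *Slug*+/+ SCs (SD, n = 3 each). The mean over 12 SC markers was 8.34 to 8.56 on the *Slug*-/- arrays and 8.23 to 8.69 on the *Slug*+/+ arrays. Of the 12, 8 had a positive difference, and *Des* was lower on every *Slug*-/- array. The difference of *Des* was -0.69 (unadjusted p = 0.021, adjusted p = 0.823, limma). Olfactory receptor genes, which muscle cells are not known to use, gave a guide to background. Their 95th percentile was 3.04, and 31 of the 40 interferon response genes had a mean over the 6 arrays above it. Of 15 immune cell markers, 8 were under this guide on all 6 arrays, among them *Ptprc* (CD45), *Itgam* and *Adgre1*. In RNA from a pool of sorted cells, fewer cells of a type and less RNA per cell cannot be told apart.

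The first question was whether the interferon response genes as a group were set at another level in *Slug*-/- SCs. No shift in either direction was found. Of the 40 genes, 18 had a positive difference (*Slug*-/- minus *Slug*+/+, log2) and 22 a negative one, or 22 and 18 once each array's median was subtracted, and the median difference was -0.02, against -0.01 over all genes and 0.03 over all genes above the background guide. The differences ran between -0.95 (*Tap1*) and 0.90 (*Ifnar1*). None of the 40 passed the test at an adjusted p of 0.05 (adjusted p between 0.823 and 0.997, limma over all genes with Benjamini-Hochberg adjustment), where the share of all genes called was 0%. None was past a fold of 2 with an unadjusted p under 0.05 either, against 0.586% of all genes higher and 0.311% lower in *Slug*-/- SCs. At an unadjusted p under 0.05, 1 gene was higher (*Ifit1*) and 1 lower (*Tap1*), each 2.5% of the 40, against 3.31% and 2.49% of all genes. All 3 *Slug*-/- arrays lay above all 3 *Slug*+/+ arrays for *Ifit1* and *Ifitm2* (5% of the 40, against 5.24% of all genes) and below them for *Mx2* and *Tap1* (5%, against 5.4% of all genes). Each of these counts was close to its background.

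**Figure D1:**
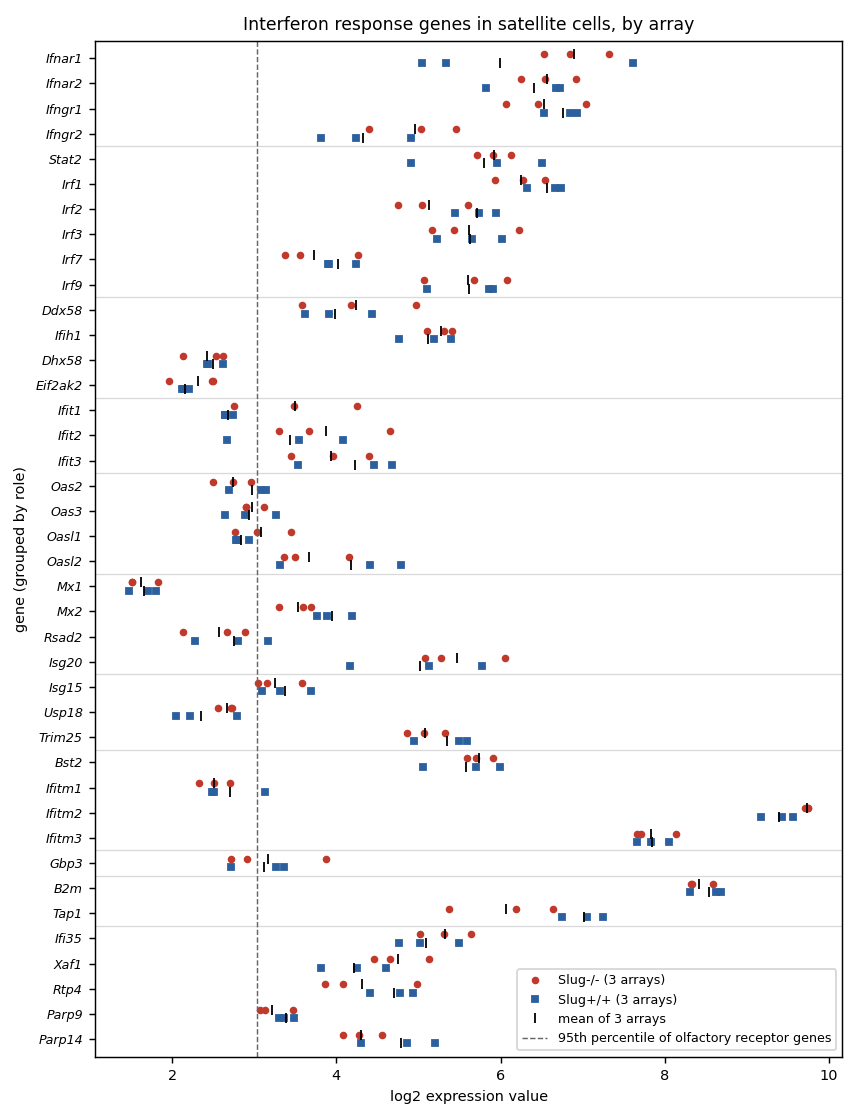
Log2 expression value (x axis) of the 40 interferon response genes (y axis, grouped by role) on the 3 *Slug*-/- arrays (red circles) and the 3 *Slug*+/+ arrays (blue squares), with the mean of each genotype as a black tick and the background guide of 3.04 as a dashed line. The genotypes overlap for all genes but *Ifit1*, *Ifitm2*, *Mx2* and *Tap1*.

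The width of the intervals says how large a difference these arrays could have missed. The 95% confidence interval of the difference lay within 2-fold either way for 26 of the 40 genes (65%), against 76.2% of all genes. Among genes above the background guide it did so for 17 of 31 interferon response genes, against 7592 of all 11912 genes. The 26 included *Isg15*, *Irf1*, *Irf7*, *Irf9*, *Bst2*, *Ifitm3* and *B2m*. They also included every interferon response gene whose mean over the 6 arrays was under the guide. These were *Dhx58*, *Eif2ak2*, *Oas2*, *Oas3*, *Oasl1*, *Mx1*, *Rsad2*, *Usp18* and *Ifitm1*, and their narrow intervals describe values near background. For the other 14, among them *Ifnar1*, *Ifit2*, *Ifit3*, *Oasl2* and *Isg20*, a 2-fold difference in at least 1 direction lay inside the interval. The interferon response genes spread more between arrays than genes at large, with a median span over the 6 arrays of 0.96 log2 units, against 0.77 over all genes. Among genes above the background guide the spans were closer, at 1.10 for 31 interferon response genes and 0.96 for all 11912 genes.

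**Figure D2:**
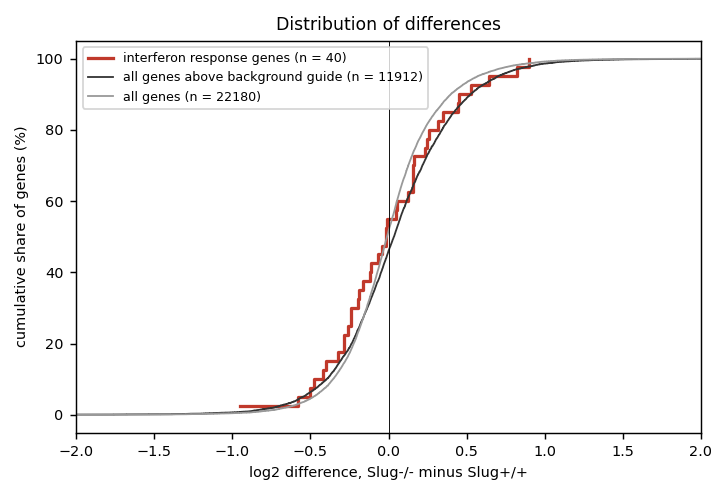
Cumulative share of genes (y axis, percent) by log2 difference, *Slug*-/- minus *Slug*+/+ (x axis), for the 40 interferon response genes (red), all genes above the background guide (black) and all genes (grey). The red line runs close to the other lines over its whole range, from -0.95 to 0.90.

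Among the receptor chains, which bind the interferons themselves, 3 of 4 had a positive difference (median 0.40), and none passed the test. *Ifnar1*, the type I receptor chain with the largest positive difference of all 40 genes, was 7.32, 6.85 and 6.52 in *Slug*-/- SCs and 5.05, 7.62 and 5.33 on the *Slug*+/+ arrays. The highest and the lowest value both belonged to *Slug*+/+ arrays, and the difference of 0.90 had a 95% interval of -0.58 to 2.37 (adjusted p = 0.914). Without *Slug*+/+ replicate 2 the difference was 1.71, and without *Slug*+/+ replicate 1 it was 0.42. *Ifnar2*, the other type I chain, was 6.92, 6.25 and 6.54 in *Slug*-/- and 5.82, 6.67 and 6.72 in *Slug*+/+ SCs. Its groups overlapped over most of their range (difference 0.17, 95% interval -0.53 to 0.86). *Ifngr2*, the signalling chain of the type II receptor, was 4.40, 5.46 and 5.03 in *Slug*-/- and 3.81, 4.24 and 4.91 in *Slug*+/+ SCs, with 2 of 3 *Slug*-/- arrays above every *Slug*+/+ array (difference 0.64, adjusted p = 0.901). The difference was 0.39 without *Slug*-/- replicate 2 or *Slug*+/+ replicate 1. *Ifngr1*, which binds interferon-γ, averaged 6.53 ± 0.49 in *Slug*-/- and 6.77 ± 0.21 in *Slug*+/+ SCs (SD, n = 3 each).

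In the RefSeq gene order, *Ifnar2*, *Il10rb*, *Ifnar1* and *Ifngr2* are neighbours with no other protein-coding gene starting between them. *Il10rb* encodes the chain that the receptors for interleukin-10 and type III interferon share. It was 5.83, 6.28 and 5.90 in *Slug*-/- SCs and 5.11, 5.09 and 5.30 on the *Slug*+/+ arrays, so the genotypes did not overlap and all 3 *Slug*-/- arrays were higher. The difference of 0.84 (SE 0.19) had an unadjusted p of 0.0026 and an adjusted p of 0.726 (limma). All 4 neighbours thus had a positive difference, which ran between 0.17 and 0.90, and none passed at the adjusted p. Positive differences made up 48.4% of all genes and 54.0% of those above the background guide. For *Ifnar2* the difference was 0.04 after quantile normalization. It turned negative without *Slug*-/- replicate 1 (-0.01) or *Slug*+/+ replicate 1 (-0.13). Downstream of the receptors, the kinase genes *Jak1*, *Jak2* and *Tyk2* had differences of 0.22, 0.73 and 0.22 (adjusted p = 0.947, 0.877 and 0.932). *Jak2* was 5.78, 6.14 and 5.44 in *Slug*-/- and 4.36, 5.59 and 5.23 in *Slug*+/+ SCs.

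Among the transcription factors, 5 of 6 had a negative difference (median -0.15), or 3 of 6 once array medians were subtracted, which turned *Irf3* and *Irf9*. Again none passed the test. *Irf2*, a factor that can repress interferon targets by occupying the ISRE, was 5.04, 4.75 and 5.61 in *Slug*-/- and 5.45, 5.95 and 5.74 in *Slug*+/+ SCs. Only *Slug*-/- replicate 3 lay within the *Slug*+/+ range (difference -0.58, 95% interval -1.19 to 0.03, adjusted p = 0.874). *Irf1*, an activator induced by interferon-γ, was 5.93, 6.28 and 6.54 in *Slug*-/- and 6.32, 6.73 and 6.66 in *Slug*+/+ SCs (difference -0.32). *Irf7*, which amplifies type I interferon production, was 3.55, 3.38 and 4.26 in *Slug*-/- and 3.91, 3.90 and 4.24 in *Slug*+/+ SCs, where replicate 3 of *Slug*-/- was the highest of the 6 arrays and the other 2 the lowest. *Stat2*, *Irf9* and *Irf3*, which carry the type I signal or start interferon production, had differences of 0.12, -0.01 and -0.02.

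**Figure D3:**
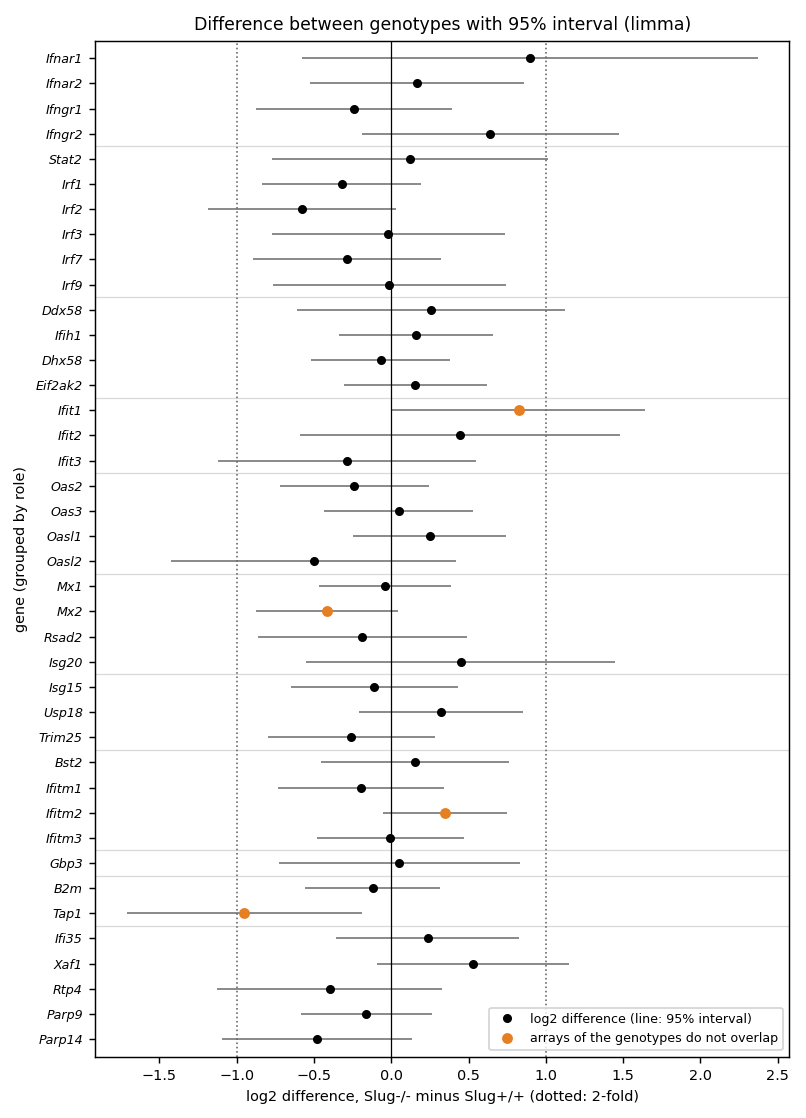
Log2 difference, *Slug*-/- minus *Slug*+/+ (x axis), of the 40 interferon response genes (y axis, grouped by role), with the 95% interval from limma as a line and a 2-fold difference as dotted lines. Orange points are the 4 genes whose genotypes do not overlap, and the intervals of *Tap1* and *Ifit1* leave out 0 before any adjustment.

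The induced genes were mixed. Of the 30 genes other than receptors and transcription factors, 14 had a positive difference, and their median was -0.02. *Ifit1*, whose protein binds viral RNA that lacks a host cap, was 4.26, 3.49 and 2.75 on the *Slug*-/- arrays, against 2.64, 2.65 and 2.74 on the *Slug*+/+ arrays. All *Slug*+/+ arrays and *Slug*-/- replicate 3 were under the background guide, so the separation rests on 2 *Slug*-/- arrays. The difference was 0.82 (95% interval 0.01 to 1.64, adjusted p = 0.858), it was 0.56 once values under the guide were raised to it, and it was 0.45 without *Slug*-/- replicate 1. Its relatives did not follow one direction. *Ifit2* was 3.66, 3.30 and 4.65 in *Slug*-/- and 3.54, 4.08 and 2.67 in *Slug*+/+ SCs (difference 0.44, 95% interval -0.59 to 1.48), and the difference was 0.05 without *Slug*-/- replicate 3. *Ifit3* was 3.45, 3.96 and 4.40 in *Slug*-/- and 3.53, 4.46 and 4.68 in *Slug*+/+ SCs (difference -0.29).

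*Isg15*, the ubiquitin-like modifier that is among the most responsive targets of type I interferon, was 3.58, 3.04 and 3.15 in *Slug*-/- and 3.32, 3.10 and 3.69 in *Slug*+/+ SCs. The groups overlapped throughout, and the difference of -0.11 had a 95% interval of -0.65 to 0.43. *Usp18*, the protease that removes Isg15 from proteins and dampens the type I receptor, was under the background guide on all 6 arrays. *Trim25*, a ubiquitin ligase that acts on RIG-I, averaged 5.09 ± 0.23 in *Slug*-/- and 5.34 ± 0.35 in *Slug*+/+ SCs (SD, n = 3 each). *Ube2l6*, the enzyme that conjugates Isg15 to its targets, was 4.86, 4.24 and 4.25 in *Slug*-/- and 5.16, 5.16 and 5.33 in *Slug*+/+ SCs. All 3 *Slug*-/- arrays were lower for *Ube2l6* (difference -0.77, unadjusted p = 0.00819, adjusted p = 0.792 from limma). *Uba7* and *Herc6*, the activating enzyme and the mouse ligase of the same conjugation, had differences of 0.66 and 0.76 (adjusted p = 0.921 and 0.905 from limma).

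Among the 4 RNA sensors the median difference was 0.16. *Ddx58* (RIG-I) and *Ifih1*, cytoplasmic sensors of viral RNA, had differences of 0.26 and 0.16, with 95% intervals of -0.61 to 1.13 and -0.34 to 0.66. *Dhx58* and *Eif2ak2*, a regulator of both sensors and the kinase PKR, were under the background guide on all 6 arrays. In the *Oas* family, whose active members make the second messenger that switches on RNase L, differences ran between -0.50 (*Oasl2*) and 0.25 (*Oasl1*). *Oasl2* was 3.49, 3.37 and 4.16 in *Slug*-/- and 4.41, 3.32 and 4.79 in *Slug*+/+ SCs, a spread within each genotype that was wider than the difference between them. *Oas2* was under the guide on all 3 *Slug*-/- arrays and *Oasl1* on all 3 *Slug*+/+ arrays, so part of their differences lies in values near background.

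*Mx2*, a dynamin-like GTPase that restricts viruses, was 3.69, 3.29 and 3.60 on the *Slug*-/- arrays, against 3.88, 4.19 and 3.77 on the *Slug*+/+ arrays. All *Slug*-/- arrays were lower, by a difference of -0.42 (95% interval -0.88 to 0.04, adjusted p = 0.879). *Mx1*, which C57BL/6 mice carry in a defective form, was under the background guide on all 6 arrays. *Isg20*, an exonuclease, was 6.06, 5.28 and 5.08 in *Slug*-/- and 4.17, 5.12 and 5.77 in *Slug*+/+ SCs, and the difference of 0.45 was smaller than the range of either genotype. Leaving out *Slug*+/+ replicate 1 gave 0.02, and leaving out *Slug*+/+ replicate 3 gave 0.82. *Rsad2* (viperin) was under the guide on all 3 *Slug*-/- arrays and on 2 of 3 *Slug*+/+ arrays.

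Among the membrane proteins that keep viruses from entering or leaving cells, *Ifitm2* was 9.75, 9.71 and 9.75 on the *Slug*-/- arrays, against 9.56, 9.18 and 9.43 on the *Slug*+/+ arrays. The *Slug*-/- arrays lay close together and above every *Slug*+/+ array, and the difference of 0.35 had a 95% interval of -0.05 to 0.75 (adjusted p = 0.894). *Ifitm3*, its close relative, was 8.13, 7.72 and 7.66 in *Slug*-/- and 7.66, 8.05 and 7.83 in *Slug*+/+ SCs, with a difference of -0.01 (95% interval -0.48 to 0.47). *Bst2* (tetherin) had a difference of 0.15, and *Ifitm1* was under the guide on all 3 *Slug*-/- arrays. The *Ifitm* genes are near-identical in part of their sequence, as are the *Ifit* and *Oas* genes, so a probe can read more than 1 of them and their separate values are uncertain.

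*Tap1* encodes a chain of the transporter that carries peptides into the endoplasmic reticulum for loading on MHC class I. It was 6.18, 5.38 and 6.64 on the *Slug*-/- arrays, against 7.06, 7.25 and 6.75 on the *Slug*+/+ arrays. All 3 *Slug*-/- arrays were lower, with *Slug*-/- replicate 2 lowest and replicate 3 close under the lowest *Slug*+/+ array. The means were 6.07 ± 0.64 in *Slug*-/- and 7.02 ± 0.25 in *Slug*+/+ SCs (SD, n = 3 each). The difference was -0.95 (SE 0.33, 95% interval -1.71 to -0.19), with an unadjusted p of 0.0206 and an adjusted p of 0.823 (limma). Leaving out 1 array at a time gave differences between -1.24 and -0.61, the smallest without *Slug*-/- replicate 2. *Tap2*, the other chain of the transporter, was 4.04, 4.04 and 3.82 in *Slug*-/- and 3.82, 3.81 and 3.90 in *Slug*+/+ SCs, a difference of 0.12. *Psmb9* and *Psmb8*, immunoproteasome genes that flank *Tap1* in the RefSeq order, had differences of 0.10 and -0.36. *B2m*, the light chain of MHC class I, was 8.34, 8.32 and 8.59 in *Slug*-/- and 8.30, 8.69 and 8.62 in *Slug*+/+ SCs, and *H2-K1*, a heavy chain, averaged 7.76 ± 0.13 in *Slug*-/- and 7.75 ± 0.14 in *Slug*+/+ SCs (SD, n = 3 each). Of the 16 other antigen presentation genes measured, 0 reached an unadjusted p under 0.05, 9 had a positive difference, and the median difference was 0.04.

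Of the 15 immune cell markers, 9 had a negative difference and 6 a positive one. The mean level of the 15 was 2.61 to 2.85 on the *Slug*-/- arrays and 2.81 to 2.96 on the *Slug*+/+ arrays. *Cd68*, a lysosomal protein abundant in macrophages, was 5.58, 5.34 and 5.58 in *Slug*-/- and 6.44, 6.86 and 6.09 in *Slug*+/+ SCs (difference -0.96, unadjusted p = 0.00354, adjusted p = 0.726 from limma). *Cd68* was lower on the same arrays as *Tap1* and *Mx2*, and its part in those values was not tested. It was 1 of 4 immune cell markers with a mean above the background guide. Of these, *Lyz2* went the other way, with 6.2, 4.2 and 3.7 in *Slug*-/- and 4.3, 4.1 and 4.7 in *Slug*+/+ SCs (difference 0.34). *Fcer1g* and *C1qa* had differences of -0.20 and -0.25. *Ptprc*, *Itgam*, *Adgre1*, *Csf1r*, *Tyrobp*, *Itgax*, *S100a8* and *C1qb* were under the background guide on all 6 arrays. *Pecam1*, the endothelial CD31, averaged 3.74 ± 0.25 in *Slug*-/- and 3.59 ± 0.23 in *Slug*+/+ SCs (SD, n = 3 each). Of 10 endothelial markers, 6 had a positive difference, and their mean level was 3.57 to 4.01 on *Slug*-/- and 3.50 to 3.84 on *Slug*+/+ arrays. Among them *Emcn*, under the guide on all 6 arrays, had a difference of 0.74 (adjusted p = 0.858 from limma), and *Kdr* was higher on every *Slug*-/- array (difference 0.33). *Flt1*, *Cldn5* and *Tie1* had differences of -0.37, -0.21 and -0.18. The brightest of the 10, *Tek* and *Cdh5*, had differences of 0.06 and -0.01. Of 8 markers of fibro-adipogenic progenitors, another cell type of muscle, 2 had a positive difference and 6 a negative one. Among them *Cd248* was lower on every *Slug*-/- array (difference -0.87), and *Lum* had a difference of 1.05 (adjusted p = 0.830 and 0.858 from limma). None of 6 mural cell and 7 myofibre markers reached an unadjusted p under 0.05.

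Among the 5 remaining induced genes, 2 had a positive and 3 a negative difference. *Xaf1*, a proapoptotic target of interferon, was 4.66, 5.13 and 4.46 in *Slug*-/- and 3.81, 4.25 and 4.60 in *Slug*+/+ SCs (difference 0.53, adjusted p = 0.896). *Parp14*, an ADP-ribosyltransferase, was 4.55, 4.28 and 4.08 in *Slug*-/- and 4.86, 4.29 and 5.20 in *Slug*+/+ SCs (difference -0.48, adjusted p = 0.899). These 2 genes overlapped between genotypes by 1 array each. *Rtp4*, *Parp9* and *Ifi35* had differences of -0.40, -0.16 and 0.23, and the GTPase gene *Gbp3* one of 0.05.

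The genes were also grouped by promoter sequence. The 15 genes with an ISRE core had a median difference of 0.05, with 9 positive and 6 negative, and the 17 without one had a median of -0.01. The 10 genes with a gamma-activated site had a median of 0.16, with 7 positive and 3 negative, and the 22 without it had a median of -0.02. Both genes that were higher on every *Slug*-/- array, *Ifit1* and *Ifitm2*, had the core shown above, as did *Isg15*, *Rsad2* and *Ifit3*, whose differences were negative. The 8 genes with the Slug E-box had a median difference of -0.10, with 6 negative, or 4 once array medians were subtracted, and the 24 without it had a median of 0.14. *Tap1* was among the 8, together with *Isg20*, whose difference was positive.

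The values also varied from array to array in ways that did not follow genotype. Each gene's value was set against its own mean over the 6 arrays. The median of these deviations over the 40 genes was -0.05, 0.05 and 0.05 in *Slug*-/- SCs and -0.08, 0.05 and 0.21 in *Slug*+/+ SCs. *Slug*+/+ replicate 3 stood highest, with 26 of the 40 genes (65%) above their own mean, against 44.4% of all genes on that array. Among genes above the background guide it was 23 of 31 (74.2%), against 54.1%. *Slug*+/+ replicate 1 held the lowest value of 12 of the 40 genes (30%), against 16.5% of all genes. Among genes above the guide it held the lowest value of 11 of 31 (35.5%), against 21.9%. *Slug*-/- replicate 1 held the highest value of 10 of the 40 genes, the most of any array, and the lowest of 11. Among the 31 genes above the guide, the lowest median was -0.12, on *Slug*-/- replicate 2.

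**Figure D4:**
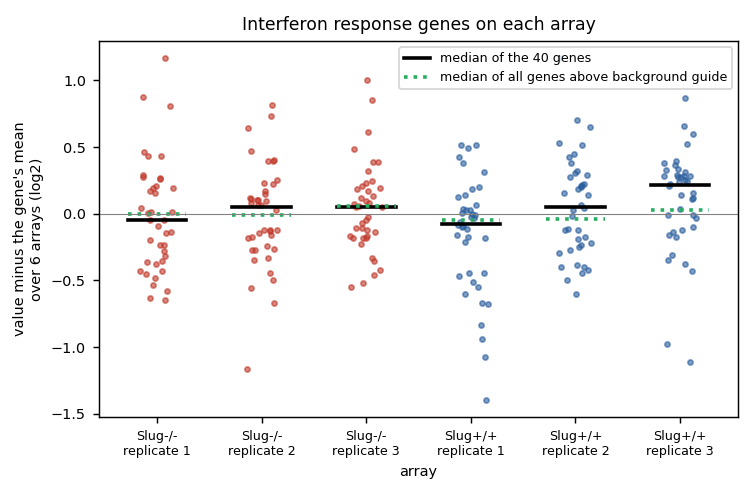
Deviation of each of the 40 interferon response genes from its own mean over 6 arrays (y axis, log2; points) on each array (x axis, *Slug*-/- in red, *Slug*+/+ in blue). Black lines are the median of the 40 genes, highest at 0.21 on *Slug*+/+ replicate 3, and green dotted lines are the median of all genes above the background guide.

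Beyond the 40 genes, 121 further genes of the pathway were measured in 7 lists, covering ligands, kinases, other factors, feedback genes, sensors, other induced genes and antigen presentation. Of these, 64 had a positive difference and the median was 0.02. None passed at an adjusted p of 0.05. At an unadjusted p under 0.05, 1 was higher (*Il10rb*, 0.826%) and 4 were lower (3.31%), against 3.31% of all genes higher and 2.49% lower. The lower genes were *Ube2l6*, *Sting1*, *Igtp* and *Lgals3bp*. *Sting1*, the adaptor of cytosolic DNA sensing, was 3.15, 3.40 and 3.45 in *Slug*-/- and 3.72, 4.15 and 3.81 in *Slug*+/+ SCs, lower on every *Slug*-/- array (difference -0.56, adjusted p = 0.823). *Cgas*, which makes the messenger that Sting1 senses, was under the background guide on all 6 arrays. *Lgals3bp*, a secreted glycoprotein that binds galectins, was 2.88, 3.49 and 3.66 in *Slug*-/- and 4.52, 5.02 and 3.71 in *Slug*+/+ SCs, and its difference of -1.07 was the only one of the 121 past a fold of 2 with an unadjusted p under 0.05 (0.826%, against 0.311% of all genes lower and 0.586% higher). *Igtp*, a GTPase induced by interferon-γ, was under the guide on all 3 *Slug*-/- arrays and on 2 of 3 *Slug*+/+ arrays (difference -0.44). Of 12 ligand genes, 6 were under the guide on all 6 arrays, including *Ifnb1* and *Ifng*, and the median difference of the 12 was 0.07. The means of 5 were above the guide, namely *Ifnl2*, *Ifna4*, *Ifnl3*, *Ifna14* and *Ifna9*. *Ifna14* was higher on every *Slug*-/- array (difference 0.48, adjusted p = 0.865 from limma). *Ifna9*, with a mean of 3.075 close to the guide, had a difference of -0.57. It was 2.7, 3.2 and 2.5 in *Slug*-/- and 4.3, 3.3 and 2.5 in *Slug*+/+ SCs. The limit given above for related genes may apply to these ligands as well. Whether such values reflect expression of the named ligand was not tested.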

How the data were processed

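Log2 expression values were used as deposited: per the labels and methods, the authors hybridised total RNA of sorted SCs to Affymetrix Mouse Gene ST arrays and exported log2 values from the vendor's console, whose normalization settings the sources used here do not state. The table held 41345 probe sets, of which 23521 carried 1 gene symbol, 1820 several and 16004 none. The brightest single-symbol probe set stood for each of 22180 genes. Gene symbols came from GEO's annotation of the platform, and promoters from RefSeq (GRCm38.p6). The members and gene lists were chosen with earlier results of these data known.

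The 3 *Slug*-/- and 3 *Slug*+/+ arrays were compared with limma 3.58.1 in R 4.3.3 (lmFit and eBayes, two-sided, Benjamini-Hochberg adjustment over all genes), with no filter on low values. The thresholds for fold (2) and unadjusted p (0.05) follow the methods. Genes named are all members, *Snai2*, genes of the further lists at an unadjusted p under 0.05 and a few sort markers. *Jak1*, *Jak2*, *Tyk2*, *Tap2*, *Psmb8*, *Psmb9*, *H2-K1*, *Cgas*, *Ifnb1*, *Ifng*, *Uba7*, *Herc6*, *Emcn*, *Kdr* and *Cd68* were added after their values were seen. So were *Lyz2*, *Fcer1g*, *C1qa*, *Des*, *Cd248*, *Lum*, *Flt1*, *Cldn5*, *Tie1*, *Tek*, *Cdh5*, *Ifna4*, *Ifna9*, *Ifna14*, *Ifnl2* and *Ifnl3*. Array medians were 2.87 to 2.96, and the SD of the differences between 2 arrays of 1 genotype was 0.52 to 0.57, so no arrays were duplicates. The number of arrays limits the precision. On simulated data of this comparison with 200 of the 22180 genes changed, a log2 change of 2 was recovered for 98% of them by fold and unadjusted p and for 77% by adjusted p, and a change of 1 for 52.5% and 0%. A log2 change of 1 equals the fold threshold, so the 52.5% depends on that threshold as well as on the number of arrays. Alternatives were quantile normalization, subtraction of array medians, an intensity trend, averaging of probe sets, a filter at the median signal, a replicate block and leaving out each array in turn. Raising values under the background guide to it was added after seeing the data.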

Additional observations from a re-analysis of the deposited data

How the results depend on the processing

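In the 12 alternatives with a test, none of the interferon response genes tested (29 of the 40 above the median signal, all 40 otherwise) passed at an adjusted p of 0.05 (lowest adjusted p 0.651). Their median difference was between -0.11 and 0.03 over these and the setting with raised values, which had no test. The sign turned in at least 1 alternative run for 16 genes, *Isg15* among them, held in each for 22, and gave way to a difference of 0 with raised values for *Eif2ak2* and *Usp18*. Quantile normalization put 1 gene (*Tap1*) past a fold of 2 with an unadjusted p under 0.05 and 2 genes (*Irf2* and *Tap1*) lower at an unadjusted p under 0.05. An intensity trend gave 2 genes higher at that p (*Ifit1* and *Ifitm2*), and keeping only genes above the median signal gave 0, since *Ifit1* was then not tested. Leaving out 1 array at a time gave 0 to 2 genes past the fold and p, 0 to 3 higher and 1 to 3 lower at the unadjusted p. *Ifnar1* passed the fold and p without *Slug*+/+ replicate 2 (1.71), *Ifit1* without *Slug*-/- replicate 3 (1.20), and *Tap1* without *Slug*-/- replicate 1 or 3 or *Slug*+/+ replicate 3. *Tap1* lost its unadjusted p without *Slug*+/+ replicate 1 or 2 (differences -0.93 and -0.84), and *Ifit1* without any 1 array but *Slug*-/- replicate 3. Over all genes, leaving out 1 array gave 133 to 267 genes higher and 84 to 124 lower past the fold and p, and 0 to 1 at an adjusted p of 0.05. The labels number the replicates alike in both genotypes, but same-numbered arrays deviated together only weakly (r = 0.0288, 0.0192 and 0.135 over genes), so the numbers were not taken to pair them. With the replicate block, 152 genes were higher and 73 lower past the fold and p, against 130 and 69 without it, and 0 interferon response genes passed. The cause of these changes was not tested. With 3 arrays for each genotype, a 2-fold change of 1 gene was not detectable at an adjusted p of 0.05 in the simulated data.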
